A study of Mus musculus with 9 samples.

Results

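The nucleoporins and nuclear transport receptors were followed in mouse embryonic fibroblasts made to overexpress p21 or p16, inhibitors of the cyclin-dependent kinases that the labels describe as bringing cells into senescence. Rows of the count table were taken by gene symbol: all symbols that begin with Nup and a digit, with Kpna or Kpnb and a digit, with Ipo and a digit or with Xpo, and in addition Rae1, Tpr, Ndc1 and Pom121. This gave 46 of the 24062 genes in the table, of which 26 carry the name of a nucleoporin or a relative of one and 20 that of a transport receptor. The rule uses no measured value. The p21 group was made of 3 libraries from fibroblasts of the C57BL/6 strain given a lentivirus for p21, and the p16 group of 3 libraries from fibroblasts of the same strain given one for p16. The control group was 3 libraries from C57BL/6 fibroblasts given the empty vector. RNA was taken on day 10 in each group, and the status label calls the control cells senescent too, although their titles name them as controls. The labels do not say whether the constructs were mouse or human, or whether the libraries of a group came from separate cultures. The p-values therefore measure only the spread between libraries, which may be technical between replicates 1 and 2, while replicate 3 of each group differed from them in Xist. The p16 records carry other label fields than those of the p21 and control libraries, and a difference in preparation and the p16 group cannot be told apart. Both vector comparisons use the same 3 control libraries.

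The nuclear pore is a ring-shaped channel through the nuclear envelope. Its scaffold is built from the Y complex, which forms the outer rings, and from the inner ring, and membrane proteins anchor it. Nucleoporins with phenylalanine-glycine repeats fill the channel, a basket extends into the nucleus and filaments extend into the cytoplasm. Importins carry proteins in and exportins carry proteins and RNAs out, with direction set by the small GTPase Ran. In dividing mammalian cells the envelope and its pores are taken apart at mitosis and built again, and new pores are added in interphase.

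Library totals ran from 56864342 to 76054820 counts. Of the 46 members, 45 passed the filter on low counts and were tested. Only the readthrough row Nup62-il4i1 did not pass, with 23 counts over the p21 libraries, 25 over the p16 libraries and 25 over the control libraries. Levels are given as CPM, read counts relative to the library total after TMM scaling. Cdkn1a, the gene of p21, stood at 1218, 1087 and 1085 CPM in p21 libraries and 399, 383 and 317 CPM in control libraries (3.09-fold higher, adjusted p = 8.05e-06). Cdkn2a, the gene of p16, stood at 1069, 1036 and 944 CPM in p16 libraries and 60.8, 68.8 and 59.6 CPM in control libraries (16.1-fold higher, adjusted p = 6.8e-07). Cdkn2a was also called higher in p21 than in control cells, at a log2 fold change of 0.6. Cdkn1a was not called in p16 against control cells, at 0.196. Xist, a sex-linked transcript, stood in replicate 3 at 158 CPM in p21, 262 CPM in p16 and 397 CPM in control cells, against at most 1.34 CPM in the other libraries. The labelled cell type was checked with 9 fibroblast markers, all of which were read, at a summed level of 29400 to 33100 CPM in p21, 30700 to 35600 CPM in p16 and 25100 to 36600 CPM in control libraries. Of these, Pdgfra was 2.37-fold lower (adjusted p = 0.00448) and Thy1 1.15-fold higher (0.0199) in p21 than in control cells. Of 9 macrophage markers, 8 were in the table and 4 of the 7 tested were higher in p21 than in control cells, against 19.3% of all genes tested. Their sums were 21 to 36.7 CPM in p21, 9.91 to 12.2 CPM in p16 and 11.5 to 12.3 CPM in control libraries. The skeletal muscle list summed to 287 to 395 CPM in p21, 193 to 208 CPM in p16 and 99.2 to 136 CPM in control libraries, and Acta1, its 1 tested member, was 3.09-fold higher in p21 than in control cells (adjusted p = 3.14e-05). Epithelial, endothelial and nerve lists summed to at most 10.4, 7.74 and 85.7 CPM in p21, 8.69, 7.6 and 87.1 CPM in p16 and 10.3, 5.53 and 76.7 CPM in control libraries. Among them Cldn4 was higher in p21 than in control cells (3.13-fold, adjusted p = 0.00468), and Emcn was higher in p21 (2.36-fold, 0.0127) and in p16 (2.82-fold, 0.0252) than in control cells. None of the markers in the table was at 0 in all libraries. The part of these cell types in the members' levels was not tested. In bulk RNA, fewer cells of a type and less RNA per cell cannot be told apart.

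Sequence upstream of the members was read from RefSeq on GRCm38.p6, where 36 of the 46 had at least 1 listed promoter, taken as 250 bases before to 50 bases after the start. The following promoters are examples and do not stand for the members as a whole. Nup37, Ndc1, Kpna2 and Nup62 were among the 10 called members with the largest changes in p21 cells, whereas Ipo13 was one of the few members that were higher. Capitals mark the letters TTTGAA or TTCGAA, as in the cell cycle genes homology region (CHR), and CCAAT, each on either strand.
Nup37 (chr10:88146742-88147041, plus strand): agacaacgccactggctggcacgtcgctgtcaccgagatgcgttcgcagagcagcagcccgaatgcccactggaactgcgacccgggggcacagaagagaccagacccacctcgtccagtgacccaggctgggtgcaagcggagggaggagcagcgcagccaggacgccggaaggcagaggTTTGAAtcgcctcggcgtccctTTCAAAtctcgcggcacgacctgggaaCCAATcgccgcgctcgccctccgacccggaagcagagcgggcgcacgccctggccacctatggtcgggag
Ndc1 (chr4:107367797-107368096, plus strand): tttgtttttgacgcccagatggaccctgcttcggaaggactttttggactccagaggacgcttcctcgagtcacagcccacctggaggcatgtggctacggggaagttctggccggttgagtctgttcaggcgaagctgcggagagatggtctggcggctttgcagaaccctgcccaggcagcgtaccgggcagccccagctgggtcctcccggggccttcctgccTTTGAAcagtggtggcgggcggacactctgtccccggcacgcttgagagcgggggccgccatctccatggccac
Kpna2 (chr11:106999476-106999775, minus strand): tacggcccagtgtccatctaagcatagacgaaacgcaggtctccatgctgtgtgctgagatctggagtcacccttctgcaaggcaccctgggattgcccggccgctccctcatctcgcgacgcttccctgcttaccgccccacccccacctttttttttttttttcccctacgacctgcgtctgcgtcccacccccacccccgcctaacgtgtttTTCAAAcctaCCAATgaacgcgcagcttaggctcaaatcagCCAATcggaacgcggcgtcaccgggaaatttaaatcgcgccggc
Nup62 (chr7:44815838-44816137, plus strand): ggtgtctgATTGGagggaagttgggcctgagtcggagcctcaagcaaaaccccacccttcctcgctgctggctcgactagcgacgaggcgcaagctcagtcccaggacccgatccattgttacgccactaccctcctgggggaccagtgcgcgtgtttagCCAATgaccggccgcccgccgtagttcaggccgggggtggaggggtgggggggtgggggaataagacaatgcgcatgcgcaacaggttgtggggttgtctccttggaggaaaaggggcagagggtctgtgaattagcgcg
Ipo13 (chr4:117914950-117915249, minus strand): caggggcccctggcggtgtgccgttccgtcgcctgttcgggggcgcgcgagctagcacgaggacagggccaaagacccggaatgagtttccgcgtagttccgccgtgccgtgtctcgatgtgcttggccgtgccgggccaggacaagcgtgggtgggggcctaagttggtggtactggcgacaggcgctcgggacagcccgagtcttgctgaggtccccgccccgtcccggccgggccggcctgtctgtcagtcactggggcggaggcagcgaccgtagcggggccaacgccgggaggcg

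Read 5′ to 3′, the Nup37 window held TTTGAA on the given strand, beginning 69 bases before the start, then on the opposite strand, followed by CCAAT. A second listed window of the gene overlapped it. The Ndc1 window held a single TTTGAA, beginning 24 bases before the RefSeq start. GENCODE M21 starts this gene earlier, at chr4:107367784, so the whole window lay within the gene as annotated there. In the Kpna2 window TTTGAA lay on the opposite strand beside CCAAT, and a further CCAAT followed the start. The Nup62 window held CCAAT only, on either strand, and the Ipo13 window held none of these letters. Other members of the 10 with the largest changes differed from those shown. The windows of Nup107 and Nup188, both lower in p21 cells, held none of these letters. That of Pom121, also lower, held TTTGAA on the opposite strand, and that of Nup62cl, which was higher, held CCAAT. Among the 20 members with a promoter that were lower in p21 than in control cells, 6 held a CHR motif (30.0%), against 4 of 14 members that were not called (28.6%). The same letters stood in 16.1% of the 10773 tested genes with a promoter, in 19.8% of the 2270 of these that were lower in p21 cells, and in 21.7% of all 27025 genes in the promoter table. CCAAT stood in 11 of the 20 lower members and in 7 of the 14 members not called. It stood in 42.5% of tested genes, in 46.5% of those lower in p21 cells and in 41.1% of all genes in the promoter table. The E2F letters TTTCCCGC, TTTGGCGC, TTTCGCGC and TTTGCCGC were in none of the 20 lower members and in 2 of 14 members not called. They were in 4.47% of tested genes, in 8.37% of those lower in p21 cells and in 2.6% of all genes in the promoter table. Motifs could overlap, and a gene counted once if any of its listed promoters held the letters. These shares are a description of the letters in the window.

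Relative to control cells, p21 cells held less RNA of the members listed here under the Y complex and inner ring and of a minority of transport receptors. Of the 45 tested members, 24 fell and 3 rose, and 18 did not pass. The shares of 53.3% lower and 6.67% higher stand beside a background of 20.7% lower and 19.3% higher among the 14572 genes tested. The median log2 fold change was -0.19 over the members and -0.01 over all genes tested. Of 25 tested nucleoporins and relatives 18 fell and 1 rose, with a median log2 fold change of -0.39. Of 20 transport receptors 6 fell and 2 rose, with a median of -0.10, or -0.063 without control replicate 1. The p21 libraries all lay below the control libraries for 29 of the 45 members, against 25.7% of all genes tested. With control replicate 2 or p21 replicate 1 left out, 1 member rose in place of 3. Summed over the 46 members, levels were 4562 ± 173 CPM in p21, 4929 ± 202 CPM in p16 and 5270 ± 317 CPM in control cells (SD, n = 3 each). Whether the nucleoporins and the receptors differed as groups was not tested.

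**Figure D1:**
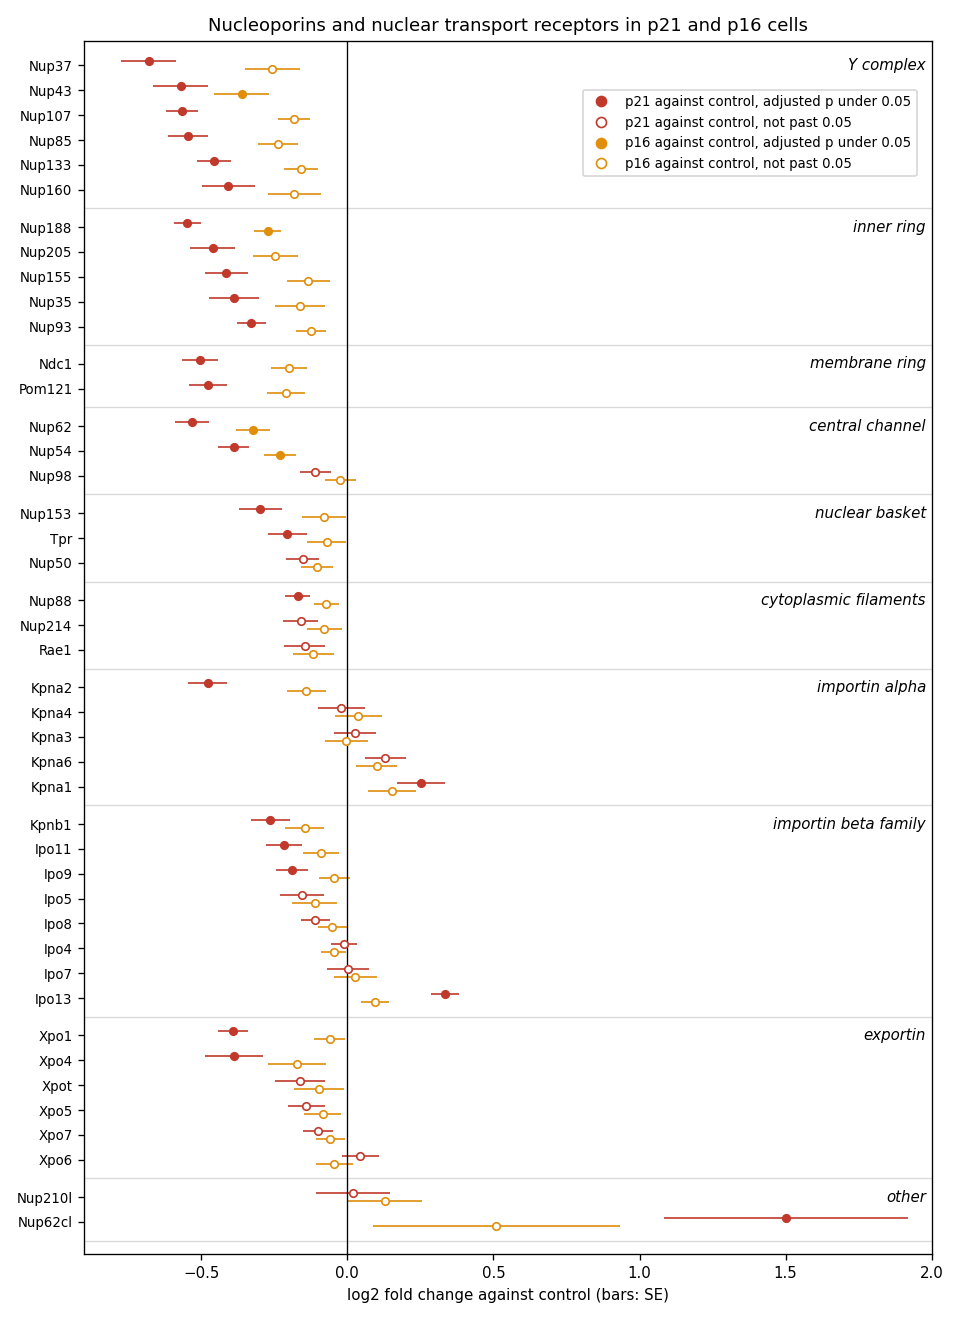
Log2 fold change of each member against control cells (x axis, with SE bars) for p21 cells, drawn above, and p16 cells, by role. The 43 tested members with a mean over 1 CPM are shown, and filled points mark an adjusted p under 0.05. All p21 points of the genes listed under the Y complex and inner ring are filled and lie between -0.68 and -0.33. Nup98 is drawn under the central channel.

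Genes of cell division moved with the members. Mki67, a marker of cycling cells, stood at 92.3, 114 and 110.2 CPM in p21, 171, 191 and 167 CPM in p16 and 281, 248 and 275 CPM in control libraries. Of 16 cell cycle genes 15 were lower in p21 than in control cells and 11 lower in p16 than in control cells. The shares lower over all genes tested were 20.7% and 3.65%. Median log2 fold changes of the 16 were -1.12 and -0.39. Between p21 and p16 cells 13 of the 16 were lower in p21, against 6.64% of all genes tested. In that comparison 4 of the 7 tested macrophage markers were higher in p21, against 6.19% of all genes tested. Relative to the mean control level, the median cell cycle gene stood at 0.433, 0.487 and 0.498 in p21, 0.775, 0.772 and 0.743 in p16 and 1.12, 0.949 and 0.924 in control libraries. The median nucleoporin stood at 0.717, 0.79 and 0.782 in p21, 0.9, 0.912 and 0.869 in p16 and 1.09, 0.976 and 0.955 in control libraries. The median receptor stood at 0.902, 0.954 and 0.926 in p21, 0.968, 0.997 and 0.92 in p16 and 1.08, 0.984 and 0.945 in control libraries, so its groups overlapped. The part of a changed share of cycling cells in the members' levels was not tested.

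**Figure D2:**
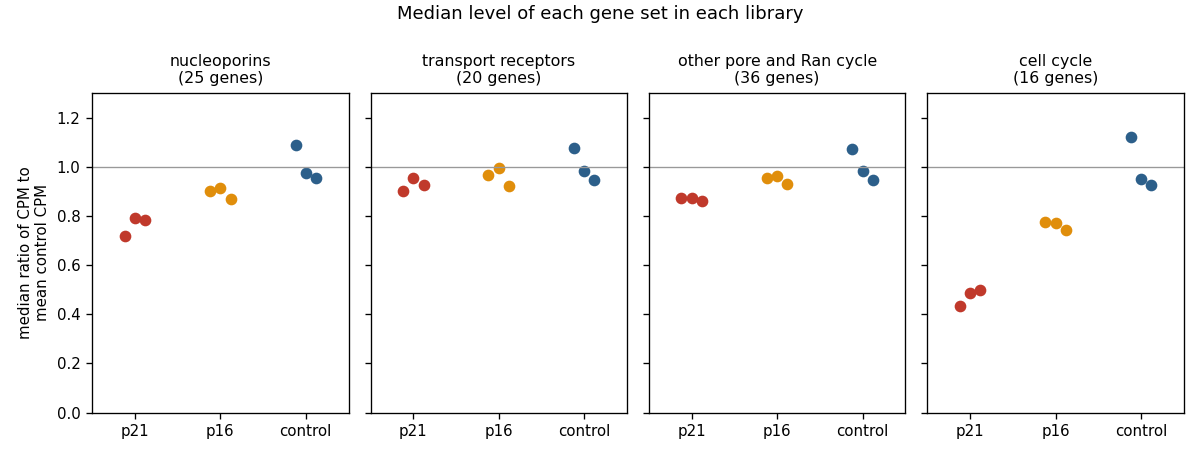
Median ratio of CPM to the mean control CPM (y axis from 0) in each library for 25 nucleoporins, 20 transport receptors, 36 other pore and Ran cycle genes and 16 cell cycle genes. The p21 libraries lie at 0.717 to 0.79 for nucleoporins and at 0.433 to 0.498 for cell cycle genes, and control replicate 1 is the highest control library in each panel.

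All 6 members listed here under the Y complex fell in p21 cells, with log2 fold changes from -0.68 to -0.41. Nup98, whose gene also encodes the Y complex subunit Nup96, was listed under the channel alone. It was not called (log2 fold change of -0.11, adjusted p = 0.13). Of the subunits outside the rule, Sec13 and Seh1l were not called (log2 fold changes of -0.023 and -0.112, adjusted p = 0.686 and 0.162). Ahctf1, also outside it, was 1.21-fold lower in p21 than in control cells (adjusted p = 0.00534). Nup37, a small subunit of this complex, stood at 9.74, 11.1 and 11.4 CPM in p21 libraries, 15.1, 14.7 and 13.4 CPM in p16 libraries and 19.1, 15.7 and 16.8 CPM in control libraries. Each p21 library lay below all p16 libraries and each of those below all control libraries. Nup37 was 1.6-fold lower in p21 than in control cells (adjusted p = 0.000484), a log2 fold change of -0.68 with an SE of 0.0942. Nup43, another small subunit, stood at 9.91, 9.44 and 10.5 CPM in p21, 12.01, 11.9 and 10.6 CPM in p16 and 16.5, 14.5 and 13.3 CPM in control libraries. The fall of Nup43 in p21 cells was 1.49-fold (adjusted p = 0.0013). Nup107, one of the core scaffold subunits, stood at 47.6, 46.5 and 48.6 CPM in p21, 61.4, 62.0 and 62.7 CPM in p16 and 75.9, 68.9 and 66.2 CPM in control libraries. Its 3 groups did not overlap, and in p21 cells it was 1.48-fold below control (adjusted p = 6.63e-05).

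Nup85, per kilobase the most abundant of the 6 members listed under the Y complex, stood at 50.9, 52.9 and 54.0 CPM in p21, 68.2, 64.8 and 62.6 CPM in p16 and 84.4, 75.9 and 70.0 CPM in control libraries. It was 1.46-fold lower in p21 than in control cells (adjusted p = 0.000291), again with no overlap among the 3 groups. Nup133 stood at 35.9, 35.8 and 37.9 CPM in p21, 45.1, 45.7 and 43.9 CPM in p16 and 54.5, 47.4 and 48.5 CPM in control libraries. This subunit was 1.37-fold and Nup160 1.33-fold lower in p21 than in control cells (adjusted p = 0.000287 and 0.00604). Summed over these 6 genes, without Nup98 and the subunits outside the rule, levels were 191.4 ± 6.31 CPM in p21, 238 ± 6.31 CPM in p16 and 274 ± 24.3 CPM in control cells (SD, n = 3 each).

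The inner ring followed, with all 5 members lower in p21 cells at log2 fold changes from -0.55 to -0.33. Nup188, one of its large scaffold proteins, stood at 74.4, 79.3 and 73.8 CPM in p21, 90.4, 95.1 and 90.2 CPM in p16 and 109, 111.5 and 112 CPM in control libraries. It had the lowest adjusted p of the members (1.46-fold lower in p21 than in control cells, adjusted p = 3.31e-05, SE 0.0466 on the log2 scale), and its groups were separate. Nup155 stood at 42.2, 49.6 and 43.4 CPM in p21, 51.8, 58.9 and 53.6 CPM in p16 and 63.4, 57.5 and 59.2 CPM in control libraries. Here p16 and control libraries overlapped, and the fall in p21 cells was 1.33-fold (adjusted p = 0.002). Nup93, which links the inner ring to the channel proteins and was the most abundant member of the ring per kilobase, stood at 66.2, 73.3 and 68.2 CPM in p21, 79.2, 81.9 and 77.9 CPM in p16 and 89.5, 85.0 and 86.3 CPM in control libraries. Its fall was 1.26-fold (adjusted p = 0.000886). Nup205, a paralogue of Nup188, and Nup35 were 1.38-fold and 1.31-fold lower (adjusted p = 0.00137 and 0.00564).

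Both expressed membrane anchors among the members fell. Ndc1, which spans the pore membrane, stood at 28.6, 30.7 and 29.0 CPM in p21, 36.7, 37.8 and 34.2 CPM in p16 and 44.3, 41.9 and 38.8 CPM in control libraries. It was 1.42-fold lower in p21 than in control cells (adjusted p = 0.000249). Pom121, the other membrane anchor, stood at 60.5, 62.4 and 62.5 CPM in p21, 74.9, 78.5 and 69.8 CPM in p16 and 93.9, 81.4 and 82.9 CPM in control libraries. That is a 1.39-fold lower level in p21 cells (adjusted p = 0.000437), and the groups of neither gene overlapped. Nup210, a membrane glycoprotein of the pore known from differentiating muscle and nerve, was near the detection limit at 0.19 ± 0.126 CPM in p21, 0.158 ± 0.0622 CPM in p16 and 0.193 ± 0.0954 CPM in control cells.

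Among the channel proteins Nup62 and Nup54, which sit in one complex, fell, and Nup98 did not pass. Nup62 stood at 70.5, 77.7 and 72.8 CPM in p21, 88.1, 86.2 and 80.7 CPM in p16 and 112, 104 and 103 CPM in control libraries. It was 1.44-fold lower in p21 than in control cells (adjusted p = 0.000133, SE 0.0582 on the log2 scale), with no overlap among the groups. Nup54 stood at 27.5, 29.9 and 29.7 CPM in p21, 33.3, 32.3 and 31.6 CPM in p16 and 39.9, 37.8 and 36.3 CPM in control libraries (1.31-fold lower in p21 than in control cells, adjusted p = 0.000486). Nup98, which also acts in RNA export, averaged 119 ± 4.32 CPM in p21 and 128.7 ± 6.66 CPM in control cells (adjusted p = 0.13). In counts of the same library, which no scaling factor touches, Nup62 had 0.608, 0.626 and 0.619 reads per read of Nup98 in p21 libraries, 0.681, 0.667 and 0.666 in p16 libraries and 0.824, 0.827 and 0.829 in control libraries.

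In the basket and the cytoplasmic filaments 3 of 6 members fell. In the nuclear basket Nup153 was 1.23-fold lower in p21 than in control cells (adjusted p = 0.0111), which did not pass with p21 replicate 1 left out (adjusted p = 0.0516). Tpr, the long coiled-coil protein of the basket and its most abundant member per kilobase, stood at 256, 285 and 259 CPM in p21, 289, 320.1 and 269.7 CPM in p16 and 317, 305 and 301 CPM in control libraries. It was 1.15-fold lower in p21 than in control cells (adjusted p = 0.0369). That call was lost when control replicate 1 or 2, p21 replicate 1 or 3, p16 replicate 1 or every replicate 3 was left out (adjusted p from 0.0562 to 0.143). Nup50, a mobile basket protein, gave 68.8 ± 1.62 CPM in p21 and 76.5 ± 5.57 CPM in control cells (adjusted p = 0.0525). On the cytoplasmic side Nup88 stood at 77.0, 79.0 and 79.5 CPM in p21, 84.1, 84.1 and 83.9 CPM in p16 and 91.6, 88.2 and 85.2 CPM in control libraries. It was 1.12-fold lower in p21 than in control cells (adjusted p = 0.0117), though not past the threshold without p21 replicate 1 (adjusted p = 0.0549). Its partner Nup214 (55.95 ± 3.66 CPM in p21 and 62.5 ± 1.89 CPM in control cells, adjusted p = 0.0606) and Rae1, an mRNA export factor (48.3 ± 2.21 CPM in p21 and 53.4 ± 4.81 CPM in control cells, adjusted p = 0.129), did not pass.

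**Figure D3:**
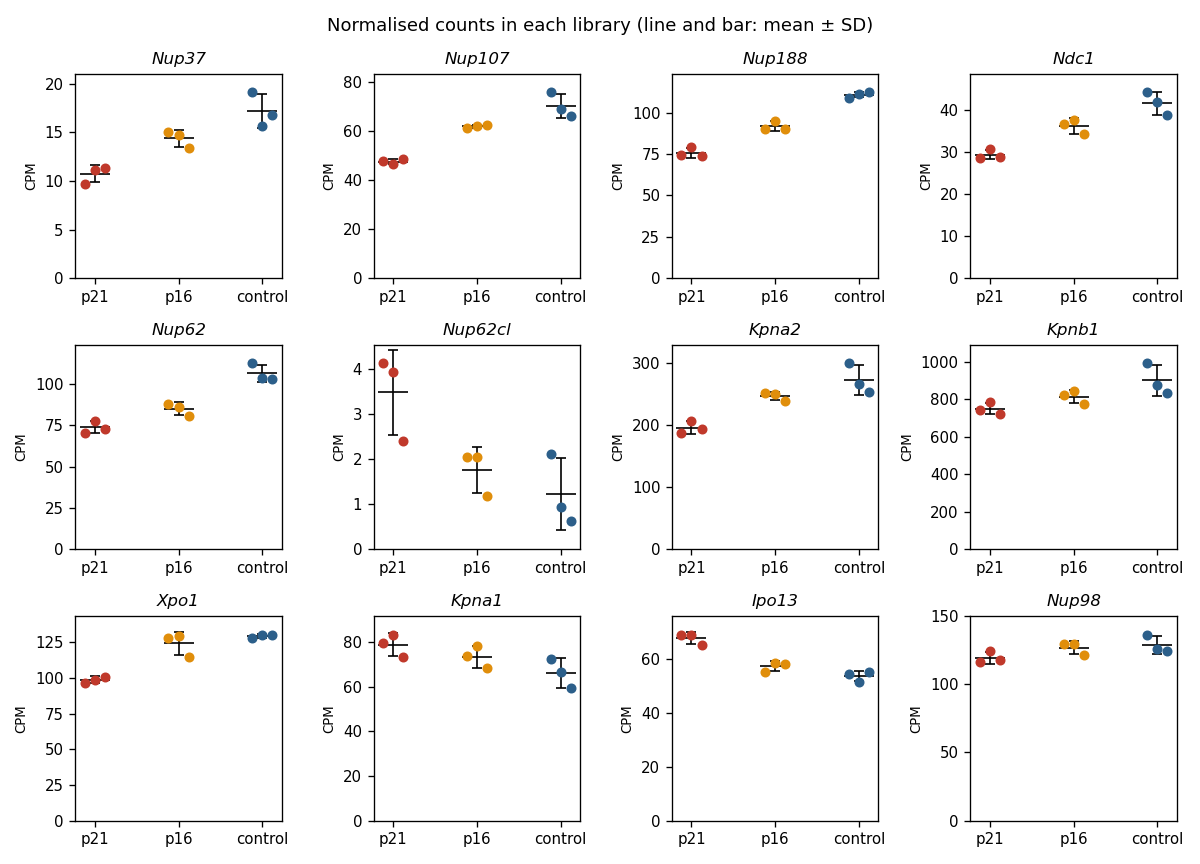
Normalised counts (CPM, y axis from 0) of 12 members in each of the 9 libraries, with mean and SD. For Nup37, Nup107, Nup188, Ndc1, Nup62 and Kpna2 the 3 groups do not overlap, Ipo13 and Nup62cl are higher in p21 than in control libraries, and the p16 libraries of Xpo1 overlap the control libraries.

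Of the relatives of nucleoporins, Nup62cl moved in the opposite direction to Nup62. This X-linked gene, whose product resembles the end of Nup62, stood at 4.13, 3.93 and 2.4 CPM in p21, 2.05, 2.05 and 1.18 CPM in p16 and 2.13, 0.934 and 0.628 CPM in control libraries. It was 2.83-fold higher in p21 than in control cells (adjusted p = 0.0174), a log2 fold change of 1.5 with an SE of 0.417, and was low in every library. In each group replicate 3 was the lowest, and the control libraries differed among themselves by more than the gap between the highest control and the lowest p21 library. It did not pass with control replicate 2 left out (adjusted p = 0.0667) or with p21 replicate 1 left out (0.0594). Replicate 3 of each group is also the library with Xist. With replicate 3 of every group left out, 24 members were called lower and 3 higher in p21 cells, with Tpr lost and Nup50 gained. Nup210l, a paralogue of Nup210, was at 2.63 ± 0.129 CPM in p21 and 2.60 ± 0.316 CPM in control cells (adjusted p = 0.918).

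The importin alpha family, the adaptors that bind classical nuclear localisation signals, was split, with 1 of 6 members lower, 1 higher and 4 not called. Kpna2, its most abundant member per kilobase, stood at 187, 208 and 194 CPM in p21, 252, 251 and 239.8 CPM in p16 and 299.8, 266 and 253 CPM in control libraries. The groups did not overlap, and Kpna2 was 1.39-fold lower in p21 than in control cells (adjusted p = 0.000511, SE 0.0668 on the log2 scale). Kpna1 stood at 79.7, 83.3 and 73.2 CPM in p21, 73.5, 78.3 and 68.4 CPM in p16 and 72.5, 66.3 and 59.4 CPM in control libraries. It was 1.19-fold higher in p21 than in control cells (adjusted p = 0.0346), by a narrow margin between the lowest p21 and the highest control library. That call did not hold without control replicate 2 or 3, p21 replicate 1 or 2 or p16 replicate 1, or with the p21 and control libraries alone (adjusted p from 0.0511 to 0.0994). Kpna3, Kpna4 and Kpna6 did not pass, at log2 fold changes between -0.02 and 0.13. Kpna7, known in mice from the oocyte and early embryo, had 17 counts over the p21 libraries, 12 over the p16 libraries and 18 over the control libraries.

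Set against each other within a library, Kpna2 had 2.35, 2.49 and 2.65 reads per read of Kpna1 in p21 libraries, 3.43, 3.21 and 3.51 in p16 libraries and 4.14, 4.01 and 4.26 in control libraries. The 3 groups were separate, and these ratios do not depend on the normalisation. The gene pairs set against each other in this way were chosen after their values were seen, so the ratios are given without a test. Kpnb1 had 10.7, 11.3 and 11.1 reads per read of Ipo13 in p21 libraries, 14.9, 14.4 and 13.3 in p16 libraries and 18.2, 17.0 and 15.1 in control libraries. Xpo1 had 0.83, 0.797 and 0.923 reads per read of Xpo6 in p21 libraries, 1.17, 1.15 and 1.07 in p16 libraries and 1.04, 1.19 and 1.21 in control libraries. For the Kpnb1 and Ipo13 pair no p16 library reached the control libraries, whereas for Xpo1 and Xpo6 these groups overlapped and only the p21 libraries lay apart.

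**Figure D4:**
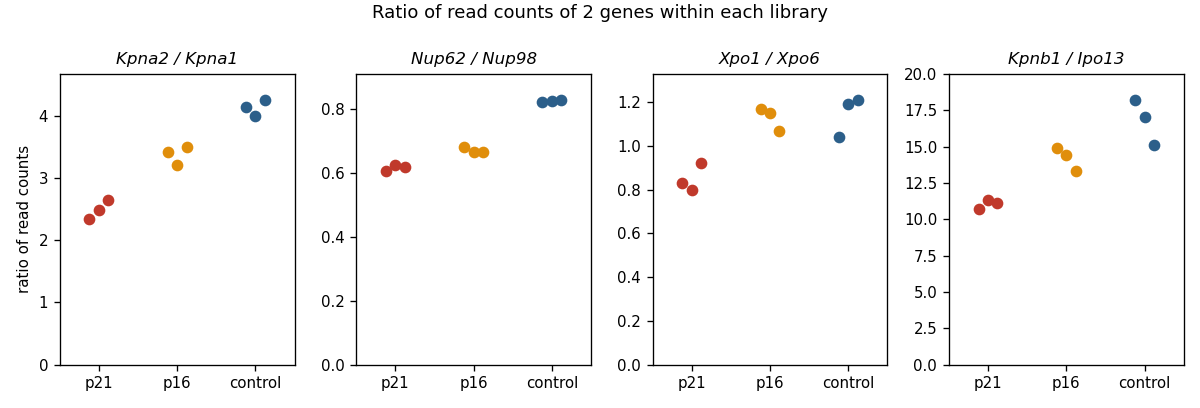
Ratio of the read counts of 2 genes within each library (y axis from 0) for Kpna2 and Kpna1, Nup62 and Nup98, Xpo1 and Xpo6, and Kpnb1 and Ipo13. The p21 libraries lie lowest in each panel, at 2.35 to 2.65 against 4.01 to 4.26 in control libraries for Kpna2 and Kpna1.

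In the importin beta family 3 of 8 members fell and 1 rose. Kpnb1, the receptor that carries importin alpha and its cargo through the pore and the most abundant of the 46 members, stood at 744, 783 and 723 CPM in p21, 824, 843 and 775 CPM in p16 and 992, 877 and 834 CPM in control libraries. It was 1.2-fold lower in p21 than in control cells (adjusted p = 0.0117), and p16 and control libraries overlapped. Ipo11 and Ipo9 were 1.16-fold and 1.14-fold lower (adjusted p = 0.0191 and 0.0197). Both were lost without control replicate 1, p21 replicate 1 or p21 replicate 3 (adjusted p from 0.051 to 0.0841), and Ipo11 also without control replicate 2 (adjusted p = 0.0568). Ipo13, a receptor that carries cargo in both directions, stood at 69.2, 69.0 and 65.4 CPM in p21, 55.4, 58.7 and 58.4 CPM in p16 and 54.5, 51.7 and 55.3 CPM in control libraries. It was 1.26-fold higher in p21 than in control cells (adjusted p = 0.000602, SE 0.0484 on the log2 scale), above every p16 and control library. Ipo5, Ipo8, Ipo4 and Ipo7 had log2 fold changes from -0.155 to 0.003 and did not pass.

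Of the 6 exportins with an Xpo symbol, Xpo1 and Xpo4 fell. Xpo1, the general export receptor for proteins with a leucine-rich signal, stood at 96.5, 98.8 and 101 CPM in p21, 128, 129.5 and 115 CPM in p16 and 128, 130.4 and 130.3 CPM in control libraries. It was 1.31-fold lower in p21 than in control cells (adjusted p = 0.000422, SE 0.0529 on the log2 scale). Of its p16 libraries 1 lay below the control libraries and the others within their range. Xpo4 was 1.31-fold lower as well (19.6 ± 1.67 CPM in p21 and 25.7 ± 3.39 CPM in control cells, adjusted p = 0.0123), which did not pass with p21 replicate 1 left out (adjusted p = 0.0527). Xpot, the tRNA exporter and per kilobase the most abundant of these 6 exportins, stood at 155, 160.2 and 171 CPM in p21, 167, 165 and 177 CPM in p16 and 156, 184 and 204 CPM in control libraries. The control libraries of Xpot spread over the range of the others (adjusted p = 0.163), and without control replicate 1 the gene was called (adjusted p = 0.0126). Xpo5, which exports microRNA precursors, Xpo6 and Xpo7 had log2 fold changes from -0.14 to 0.04 and did not pass.

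Levels between genes were compared per kilobase of exon. The members with the most stable calls or highest levels lie apart in the genome, on GRCm38 with Nup107 at chr10:117750621-117792705, Nup188 at chr2:30286397-30344266, Kpnb1 at chr11:97159714-97187881 and Xpo1 at chr11:23256041-23298249. Kpnb1 led the members in each group and averaged 127 CPM per kilobase in p21, 138 in p16 and 153 in control cells. Kpna2 and Ipo5 were close together in p21 cells, at 83.6 and 87.1 CPM per kilobase, and at 116 and 97.0 in control cells, so their order differed between the groups. Among the nucleoporins taken by symbol, Tpr led in p21 cells at 34.9 CPM per kilobase, against 40.2 in control cells. Nup88 stood at 31.8 in p21 and 35.7 in control cells, and Nup62 at 27.1 in p21 and 39.1 in control cells. Sec13, a nucleoporin outside the symbol rule, stood above them at 138 in p21 and 140 in control cells. Among those taken by symbol, Nup62 was thus second in control cells and behind Nup88 and Rae1 (27.7) in p21 cells. Across the 43 tested members over 1 CPM, the log2 fold change in p21 cells correlated at r = -0.24 with the log2 mean CPM and at r = 0.04 with exonic length. These values describe genes that share the same libraries.

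The p16 cells differed from the same control libraries in few members. Nup43, Nup62, Nup188 and Nup54 were lower in p16 than in control cells, 4 of 45 members (8.89%) against a background of 3.65% lower. By edgeR's quasi-likelihood test 0 members were higher, against a background of 3.57%, with 0 by DESeq2 and 0 at edgeR's unadjusted p under 0.05. Scaled by library size alone, 683 of all genes tested were lower and 444 higher, against 532 lower and 520 higher with TMM, and 6 members were lower. The median log2 fold change was -0.10 over the members, -0.16 over the nucleoporins and -0.05 over the receptors. Without control replicate 1 these medians were -0.043, -0.087 and -0.009, and without p16 replicate 3 that of the receptors was -0.029. Nup62 was 1.25-fold lower (adjusted p = 0.0148), Nup188 1.21-fold (0.0118), Nup54 1.17-fold (0.0346) and Nup43 1.28-fold (0.0493). The p16 libraries of these 4 genes lay below all their control libraries. That held for 15 of the 45 members, against 15.1% of all genes tested. Of the 20 receptors 0 were called by edgeR and 0 by DESeq2 in this comparison, and 0 had an unadjusted p under 0.05 by edgeR.

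These p16 calls depended on single libraries. Counts of lower members were 2 without control replicate 1, control replicate 2, p21 replicate 2 or p16 replicate 3, 1 without p16 replicate 1 or p16 replicate 2, and 5 without control replicate 3. Lower calls over all genes tested were also fewer in each of these fits than the 532 with all libraries. They were 363, 179 and 412 without control replicates 1, 2 and 3, and 397 without p21 replicate 2. Without p16 replicates 1, 2 and 3 they were 105, 68 and 177. The replicate number as a block gave 9 lower members, with Nup85, Nup107, Nup205, Ndc1 and Pom121 added to the 4, and DESeq2 gave 8. Over all genes tested, lower calls numbered 1221 with the block and 857 with DESeq2, against 532 in the fit without a block. Nup43 was lost without any 1 of 8 libraries (adjusted p from 0.0576 to 0.131), the exception being control replicate 3. Nup54 did not pass without control replicate 1 or 2, p21 replicate 2 or any p16 library (0.0508 to 0.121), Nup62 not without p16 replicate 2 (0.0612) and Nup188 not without p16 replicate 1 (0.0545). Control replicate 1 had the highest level of the control libraries for 41 of the 45 members, and both comparisons with control cells share it.

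p21 and p16 cells were also compared directly, and 12 members were lower and 1 higher in p21 than in p16 cells (26.7% and 2.22% of 45), against a background of 6.64% lower and 6.19% higher. The lower ones were the Y complex genes Nup37, Nup107, Nup85 and Nup133, the inner ring genes Nup155, Nup188 and Nup93, Ndc1 and Pom121 of the membrane, Nup62, Kpna2 and Xpo1. Ipo13 was the higher one. Nup37 was 1.34-fold (adjusted p = 0.0198), Nup107 1.3-fold (0.00303), Kpna2 1.26-fold (0.0125) and Xpo1 1.26-fold lower (0.00497), and Ipo13 was 1.18-fold higher (0.0134). The p21 libraries lay below all p16 libraries for 21 of 45 members, against 18.5% of all genes tested. The median log2 fold change was -0.12 over the members and -0.01 over all genes tested. With the replicate block 14 members were lower and 2 higher, with Nup153 (adjusted p = 0.0274), Nup205 (0.0343) and Nup62cl (0.0089) added. Without control replicate 1 there were 17 lower and 2 higher. Without p21 replicate 1 only 3 members were lower, without p16 replicate 1 there were 4 and without p16 replicate 2 there were 5, and Ipo13 was not called without p21 replicate 1 or p16 replicate 1. Lower calls over all genes tested were also fewer without these libraries, at 321, 452 and 475 against 968 with all libraries. Nup107, Nup188 and Xpo1 passed under all 16 alternatives, and the other 10 calls were all lost without p21 replicate 1.

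The rest of the transport system was read from a list of 36 other genes of the pore, the Ran cycle and RNA export. In p21 cells 21 of the 36 were lower and 3 higher than in control cells, against 20.7% and 19.3% of all genes tested, with a median log2 fold change of -0.20. The lowest adjusted p values were those of Alyref, an adaptor for mRNA export (39.8, 40.3 and 39.8 CPM in p21 and 65.2, 58.4 and 56.3 CPM in control libraries, 1.5-fold lower, adjusted p = 0.000108), the SUMO protease gene Senp1 (1.44-fold lower, 0.000206) and the mRNA export helicase gene Ddx39b (1.45-fold lower, 0.000426). Named here after their values were seen, Ran itself was 1.28-fold lower (adjusted p = 0.00297), its exchange factor gene Rcc1 1.52-fold lower (0.00053) and Cse1l, which returns importin alpha to the cytoplasm, 1.31-fold lower (0.00372). Tnpo2, Snupn and Tmem33 were higher. In p16 cells 2 of the 36 were lower than in control cells, Alyref (adjusted p = 0.0197) and Ddx39b (0.0443), against 3.65% of all genes tested, a share near this count. Between p21 and p16 cells 6 of the 36 were lower in p21 cells, against 6.64% of all genes tested, and none was called higher.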

How the data were processed

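RNA of the 9 libraries was column-extracted and made into TruSeq RNA version 2 libraries, a kit that does not mark strand, per the labels' protocols. The authors deposited whole-number read counts per gene symbol, not normalised. TopHat2 2.0.14, Bowtie2 2.2.6, Subread, featureCounts 1.4.6 and mm10 are named, per the submitters' processing notes. The annotation, strand setting and handling of multiply mapped reads were not given in the sources used, so reads shared between overlapping genes may be split or lost. In GENCODE M21 other genes cover 60.1% of the exonic bases of Ipo4, 13.2% of Nup188, 12.6% of Nup133 and 11.8% of Pom121.

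Groups and replicate numbers came from the sample titles. Counts were tested with edgeR 4.0.16 in R 4.3.3 (filterByExpr with the groups, TMM, quasi-likelihood F test, 1 fit of 9 libraries), with Benjamini-Hochberg adjustment over 14572 genes and a threshold of 0.05. A gene is called lower or higher when it passes. The SE was taken as the size of the log2 fold change over the square root of F. DESeq2 1.42.0 and the other settings listed in the closing section were alternatives, and the code was tested on simulated data. Exonic lengths are unions of GENCODE M21 basic exons on GRCm38, promoters are RefSeq's.

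Members and lists were chosen with earlier results of these data known. Values in every library are given for up to 10 called members per comparison with the largest change and for the most abundant member per kilobase of each role, and for Kpna1 and Ipo13, added after their values were seen. No libraries of 1 group agreed within counting noise (chi-square per degree of freedom of at least 10.37). For same-numbered libraries, the correlations of deviations from the group mean were 0.251, 0.109 and 0.545 between p16 and control and 0.159, 0.287 and 0.478 between p21 and p16, all above the limit of 0.1. Between p21 and control they were 0.183, 0.0253 and 0.489. Libraries of different numbers also correlated, at 0.299 for p16 replicate 2 and control replicate 1. The values were 0.144 for p21 replicate 2 and p16 replicate 1 and 0.358 for p21 replicate 2 and control replicate 1. Replicate 3 stood apart. Its libraries correlated with each other at 0.478 to 0.545 and with replicates 1 and 2 of another group at -0.456 to -0.0562, and they alone held Xist above a trace. The replicate 3 libraries thus share a trait across the groups. Whether replicates 1 and 2 are paired by number is not settled by these data. Calls come from the fit without a block unless the block is named.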

Additional observations from a re-analysis of the deposited data

How the results depend on the processing

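Alternatives were RLE factors, library size alone, DESeq2, no filter, the 2 compared groups alone, the replicate block, replicates 1 and 2 only, and leaving out each of the 9 libraries. Of the 24 members lower in p21 than in control cells, 18 passed under all 16 settings, 15 of them nucleoporins. Counts lower in p21 against control were 18 to 27 with 1 library left out, and those higher 1 to 4. The replicate block gave 30 lower in that comparison, where the correlations of same-numbered libraries were not all above 0.1. Over all genes tested, lower calls there numbered 3012 in the main fit and 3739 with the block. They numbered 2104 without p21 replicate 1, where 18 members were lower, and 2694 without control replicate 3, where 27 were. For p16 against control the counts lower were 8 with DESeq2, 2 with the compared groups alone, 9 with the replicate block, 1 with replicates 1 and 2, and 1 to 5 with 1 library left out. Lower calls over all genes tested were 857, 222, 1221 and 243 in the first 4 of these, and 68 to 483 with 1 library left out, against 532 in the main fit. No member was called higher in that comparison under any setting. For p21 against p16 the replicate block gave 2 higher and 14 lower, and leaving out 1 library gave 0 to 2 higher and 3 to 17 lower. Over all genes tested the block gave 1715 higher and 1781 lower, against 902 and 968 in the main fit. Lower calls over all genes were 321 to 1293 with 1 library left out. Causes were not tested. The median log2 fold change of the members was below 0 under each setting, at -0.25 to -0.165 for p21 against control, -0.133 to -0.043 for p16 against control and -0.173 to -0.097 for p21 against p16 with 1 library left out. With library size alone the median over all genes tested was -0.05 for p21 against control, against -0.01 with TMM. Depth limits Kpna7, Nup210 and the readthrough row, whose differences were not detectable at these counts.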
